A study of Mus musculus with 6 samples.

Results

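The HOX genes are the homeobox genes of the Hoxa, Hoxb, Hoxc and Hoxd clusters, and they were followed here in neonatal dermal fibroblasts with and without a deletion of Nelfb, a subunit of the negative elongation factor (NELF) complex. Every protein-coding row of the expression table whose symbol is Hox, a cluster letter and a paralog number was taken, which gave 32 of the 17924 genes listed, and 31 of them are described. Of these cluster a held 8, cluster b held 8, cluster c held 9 and cluster d held 6.

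RNA-seq was carried out on 3 CTL and 3 Nelfb-/- libraries. All mice were Pdgfra-Cre+/-, so that both groups carried the Cre transgene. At the Nelfb locus the mice that gave CTL cells were fl/wt or wt/wt, and those that gave Nelfb-/- cells (marked KO in the plots) were fl/fl (the strain was C57BL/6J). The fibroblasts were taken from dorsal skin at birth (P0) and kept for 14 days in a medium that drives fat cell formation. Cre expressed from the Pdgfra promoter recombines only in cells that are or were Pdgfra-positive. The labels call the samples adipocytes, but each is a bulk culture in which fewer cells of a type and less RNA per cell cannot be told apart. Nothing in the labels ties a library to 1 animal, so that the p-values measure only the spread between these samples.

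HOX proteins are DNA-binding transcription factors that give cells along the head-to-tail axis of the embryo their positional identity. Within a cluster the genes lie in the order in which they are used, with low paralog numbers at the head end (anterior) and high numbers at the tail end (posterior), and genes with the same number in different clusters are paralogs. Adult fibroblasts keep much of the HOX pattern of the place in the body they come from, a memory held in part by Polycomb and Trithorax chromatin complexes, and HOX proteins bind DNA together with TALE homeodomain cofactors of the Pbx and Meis families. NELF acts at the step where RNA polymerase II pauses just after the start of a gene.

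The clusters lie on 4 chromosomes of the mouse genome (GRCm38), and the members described spanned between 73.2 kb (cluster d, chr2:74691924-74765142) and 116 kb (cluster c, chr15:102921103-103036852). Cluster a occupied chr6:52162417-52245810 and cluster b chr11:96271457-96354012. The 250 bases before the start of a gene are shown for Hoxa9, whose adjusted p was the lowest of the members, and for Hoxb8 and Hoxd8, paralogs whose levels lay far apart. The sequences are from RefSeq (GRCm38.p6), written 5′ to 3′ on the strand of the gene, with a TATAAA box, a CCAAT box or the GAGAG letters of a GAGA element in capitals, found on either strand, and with no overlap between them.
Hoxa9, chr6:52227371-52227620, minus strand: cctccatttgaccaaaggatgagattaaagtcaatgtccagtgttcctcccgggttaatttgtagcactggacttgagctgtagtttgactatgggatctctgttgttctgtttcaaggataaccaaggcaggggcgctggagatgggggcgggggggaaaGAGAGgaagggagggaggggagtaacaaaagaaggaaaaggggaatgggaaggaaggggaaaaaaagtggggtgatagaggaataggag
Hoxb8, chr11:96281655-96281904, plus strand: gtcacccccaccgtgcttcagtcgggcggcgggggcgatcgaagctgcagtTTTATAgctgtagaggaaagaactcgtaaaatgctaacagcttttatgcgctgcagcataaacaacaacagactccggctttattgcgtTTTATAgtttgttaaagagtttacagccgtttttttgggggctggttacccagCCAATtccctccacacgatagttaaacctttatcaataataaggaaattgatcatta
Hoxd8, chr2:74704365-74704614, plus strand: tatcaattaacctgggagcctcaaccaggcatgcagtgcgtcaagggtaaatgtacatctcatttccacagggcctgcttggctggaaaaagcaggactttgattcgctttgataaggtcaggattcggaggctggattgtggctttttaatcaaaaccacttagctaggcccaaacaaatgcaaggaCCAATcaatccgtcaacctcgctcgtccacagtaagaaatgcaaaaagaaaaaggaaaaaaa
The Hoxa9 stretch lies inside the annotated gene (chr6:52223100-52231089), before the start that RefSeq uses and in an intron of a longer transcript, whereas the other two end just before the first base of their genes. It held 3 CG pairs and a single GAGAG. Hoxb8 held 12 CG pairs, a CCAAT and 2 copies of TATAAA on the opposite strand, which read TTTATA here. Hoxd8 held 6 CG pairs and a CCAAT.

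A RefSeq window was at hand for 16 of the 31 HOX genes. Their median was 12 CG pairs in the 250 bases, against 6 over the 27025 symbols with a window. TATAAA was present in 12.5% of the HOX windows and 12.97% of all windows, CCAAT in 8 of the 16 HOX windows and 34.5% of all, and GAGAG in 56.25% and 54.6%. These matches describe the letters of the windows only.

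Each library held between 17.2 and 29.4 M reads (M stands for 1000000) on the listed genes, and 3 reads were worth 0.102 to 0.175 CPM (reads of a gene per 1000000 reads of its library). Nelfb, at chr2:25199712-25211489, stood at 17.3, 19.6 and 22.3 CPM in the 3 CTL libraries and at 5.50, 3.90 and 5.55 CPM in the Nelfb-/- libraries. Here and in what follows the values of a group are in the order of replicates 1, 2 and 3. Nelfb was lower in all 3 Nelfb-/- libraries (log2 fold change -1.99, SE 0.22, adjusted p = 0.0050 by limma), and some transcript remained. Of 16252 genes tested, 1824 (11.2%) passed the threshold, which asked for an adjusted p no higher than 0.05 together with a 2-fold change or more. The first principal component separated the groups (59.9% of the variance), while on the second (27.7%) CTL replicate 3 and Nelfb-/- replicate 1 lay farthest apart.

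The most abundant HOX genes were the same in both groups. Per kb of exon, Hoxc6, Hoxc8, Hoxc10 and Hoxd8 were the first 4 of the 31 in every library, and together they made up between 48.3% and 52.6% of the summed HOX level per kb. Hoxd8 averaged 14.3 CPM per kb in CTL and 15.4 in Nelfb-/- cells, Hoxc8 15.6 and 11.3, Hoxc6 14.9 and 12.5, and Hoxc10 14.2 and 12.01. The order among these 4 changed from library to library, with Hoxc10 first in CTL replicate 1 and Nelfb-/- replicate 1, Hoxc8 first in CTL replicate 3, and Hoxd8 first in the other 3. The next gene in each library reached between 0.436 and 0.632 of the level of the last of them.

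Levels per kb were highest at paralog number 8 and low at both ends of the series, without a steady slope between. Summed over the paralogs, the CTL level per kb was 3.49 CPM at number 2, 11.2 at number 4, 33.5 at number 8, 15.5 at number 9, 18.3 at number 10 and 1.78 at number 11. In Nelfb-/- cells the same sums were 2.58, 8.47, 30.1, 14.7, 15.2 and 1.49. Paralogs with one number did not always share a level. Hoxb8 averaged 3.51 CPM per kb over the 6 libraries and Hoxd8 14.8, whereas Hoxa7 (2.91) and Hoxb7 (2.97) lay close together. Ranked per kb, the 31 genes kept much the same order in any pair of libraries. Spearman's rho over the 31 genes lay between 0.853 and 0.935 for the 9 pairs of a CTL with a Nelfb-/- library and between 0.764 and 0.971 for the 6 pairs within a group, as a description over genes that share library, gene length and locus.

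**Figure D1:**
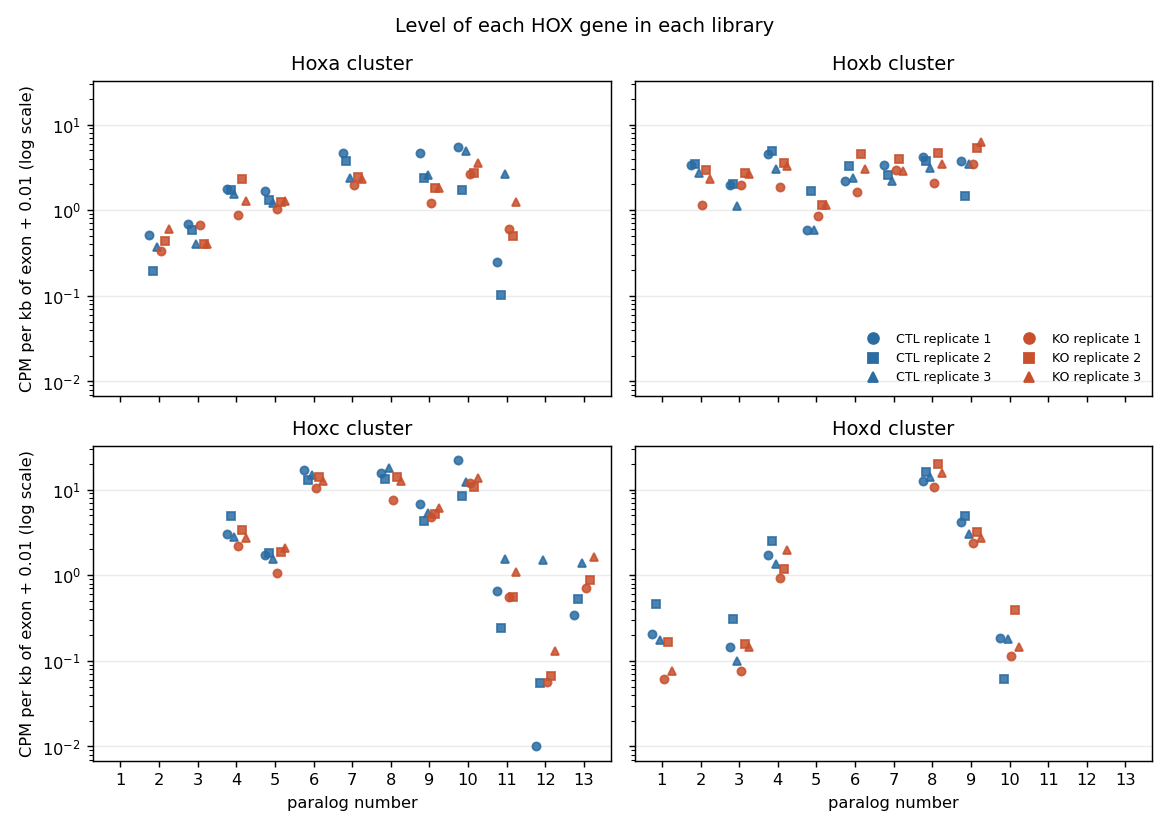
Level of each of the 31 HOX genes in each library (CPM per kb of exon plus 0.01, log scale) by paralog number, 1 panel a cluster, blue for CTL and orange for Nelfb-/- (KO), with a symbol for each replicate. Hoxc6, Hoxc8, Hoxc10 and Hoxd8 lead in every library, and the widest scatter lies at paralog numbers 11 to 13, where CTL replicate 3 stands above the other CTL libraries.

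None of the HOX genes described passed the threshold between Nelfb-/- and CTL cells. Of the 31, 28 had a mean of at least 10 reads at the common depth and were tested, and 0 of 28 passed, against 11.2% of all genes tested. With the adjusted p alone 0 of 28 passed, against 15.8% of all genes. Without adjustment, 1 member (Hoxa9) had a limma p under 0.05, against 32.5% of all genes.

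A change of 2-fold in either direction was not seen in the means of any tested member, whereas 3409 of the 16252 genes tested differed by that much or more. The log2 fold changes of the 28 lay between -0.93 (Hoxa9) and 0.86 (Hoxb9), with 18 below 0 and 10 above. Their median was -0.18, beside 0.07 over all genes tested, and their median size without sign was 0.33, beside 0.43. The libraries of a group were farther apart for HOX genes than for others, with a median within-group SD of 0.45 on the log2 scale for the 28 members and 0.33 for all genes tested.

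These data limit the change more closely for some members than for others. In the main fit the 95% interval of the log2 fold change lay wholly within 2-fold in both directions for 9 of the 28. Their bounds lay between -0.99 and 0.91. They were Hoxa3, Hoxa5, Hoxb7, Hoxb8, Hoxc5, Hoxc6, Hoxc9, Hoxc10 and Hoxd8. The list depends on the scaling. With median of ratios scaling Hoxa3 was at -0.25 (SE 0.34) rather than -0.18 (SE 0.34). That shift takes its lower bound, -0.99 in the main fit, past a 2-fold decrease. For 13 members the interval reached a 2-fold decrease and for 8 a 2-fold increase, so that changes of that size lie within what 3 libraries a group leave possible.

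**Figure D2:**
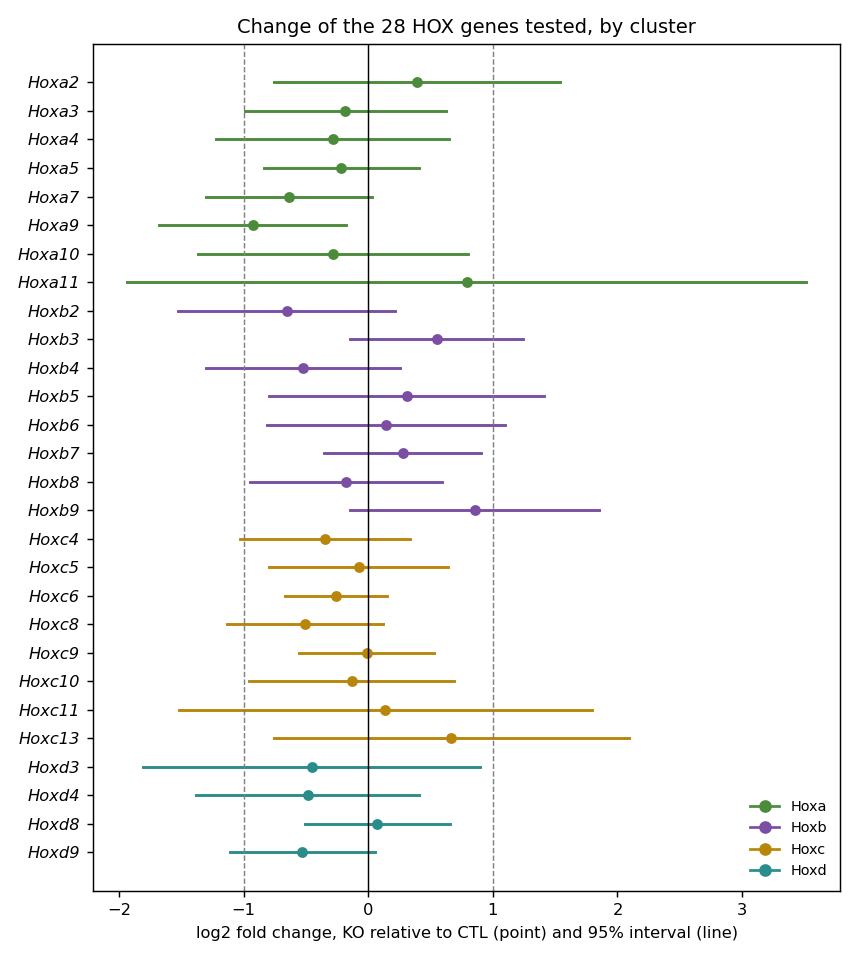
Log2 fold change of the 28 tested HOX genes, Nelfb-/- (KO) relative to CTL, with the 95% interval from limma (3 libraries a group), coloured by cluster. Dashed lines mark a 2-fold change. The interval of Hoxa9 alone leaves out 0, from -1.68 to -0.18, and that of Hoxa11 is the widest, from -1.94 to 3.52.

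**Figure D3:**
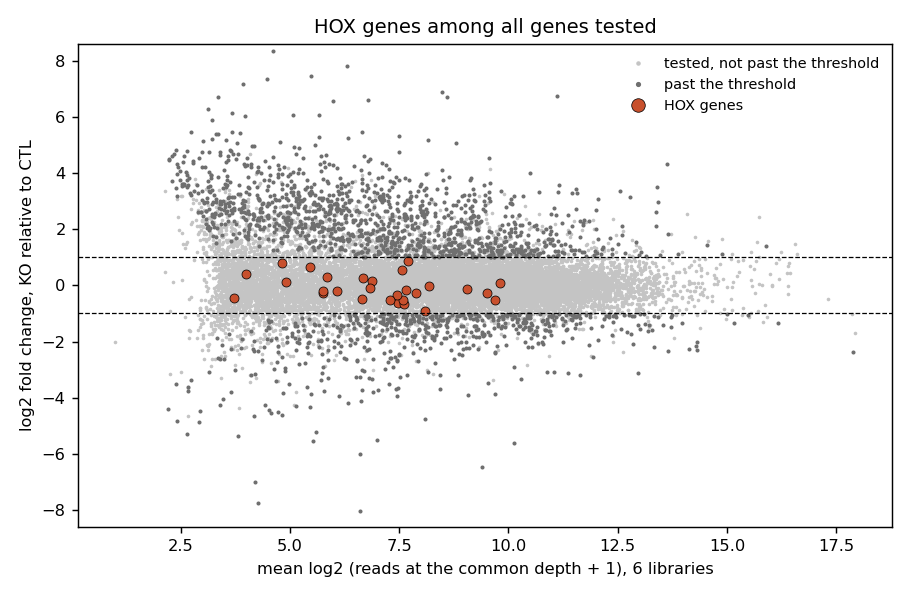
Log2 fold change against mean log2 level for the 16252 genes tested, with those past the threshold in dark grey and the 28 HOX genes in orange. The HOX genes lie between the dashed lines of a 2-fold change.

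The anterior members (paralog numbers 1 to 3) described here are 6 genes, with low levels in clusters a and d. Hoxa2, which patterns the hindbrain and pharyngeal arches, had a mean of 0.621 CPM in CTL and of 0.792 CPM in Nelfb-/- cells. Hoxb2, which acts in the facial nerve segment of the hindbrain, stood at 11.6, 11.97 and 9.34 CPM in CTL, against 3.98, 10.2 and 8.09 CPM in Nelfb-/- cells. The low Nelfb-/- value was that of replicate 1, and the groups overlapped (log2 fold change -0.65, SE 0.36, adjusted p = 0.27 by limma). Of its exon bases, 27.3% are also covered by the antisense RNA Hoxb3os.

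Hoxb3, its neighbour in the cluster, had a higher mean in Nelfb-/- cells, with 8.25, 8.62 and 4.74 CPM in CTL, against 8.34, 11.5 and 11.1 CPM in Nelfb-/- cells (log2 fold change 0.55, SE 0.29, adjusted p = 0.24, and 0.27 on the log2 scale without CTL replicate 3). The same RNA covers 52.9% of its exon bases. The strand setting of the counting is not given in the sources used here, so that reads of Hoxb3os and of either gene cannot be told apart. Hoxa3, which acts in thymus and parathyroid formation, ranged from 2.34 to 4.05 CPM over the 6 libraries. Hoxd3 was at 0.276 to 1.26 CPM, and 62.3% of its exon bases are shared with Hoxd4 or Gm28230 on the same strand, which leaves both Hoxd3 and Hoxd4 uncertain.

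Hoxd1, known for a role in pain-sensing neurons, was listed at 0.361, 0.840 and 0.306 CPM in CTL, against 0.095, 0.291 and 0.122 CPM in Nelfb-/- cells. The Nelfb-/- values all lay below the CTL values, but 2 of them were at or under 3 reads and the gene was below the filter. Without a filter its log2 fold change was -1.34 (SE 0.60, adjusted p = 0.18 by limma).

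The central members (4 to 8) made up the bulk of the HOX reads, and 10 of the 14 had a lower mean on the log2 scale in Nelfb-/- cells without any passing the test. Hoxc8, which shapes the thoracic skeleton and represses brown fat genes in white fat precursors, stood at 44.4, 37.9 and 50.6 CPM in CTL, against 21.2, 39.8 and 35.3 CPM in Nelfb-/- cells (log2 fold change -0.50, SE 0.26, adjusted p = 0.24). One Nelfb-/- library, replicate 1, was well below the other two, and replicate 2 lay above the lowest CTL library. Hoxd8 had its lowest and its highest value in the Nelfb-/- group, with 34.3, 44.1 and 38.9 CPM in CTL, against 29.5, 54.7 and 42.6 CPM in Nelfb-/- cells (log2 fold change 0.07, SE 0.24, adjusted p = 0.86). Hoxc6, a gene of the thoracic region, was the steadiest of the abundant members, with 40.7, 31.5 and 35.6 CPM in CTL, against 25.4, 34.2 and 30.6 CPM in Nelfb-/- cells (log2 fold change -0.26, SE 0.17, adjusted p = 0.34).

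All 4 paralogs of number 4 had a negative log2 fold change, from -0.28 (Hoxa4) to -0.52 (Hoxb4), with adjusted p between 0.32 and 0.65. Hoxb4, known from blood stem cell expansion, stood at 11.5, 12.4 and 7.68 CPM in CTL, against 4.74, 9.20 and 8.45 CPM in Nelfb-/- cells, and the groups overlapped. Among the paralogs of number 5, Hoxa5, which acts in the lung and skeleton, lay between 1.94 and 3.11 CPM in all libraries. Hoxb5 was at 4.62 CPM in CTL replicate 2 and between 1.598 and 3.18 CPM in the other 5.

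The paralogs of number 7 had log2 fold changes of opposite sign, and neither passed the threshold. Hoxa7, a neighbour of Hoxa9 that is often co-expressed with it in leukaemia, stood at 13.3, 10.7 and 6.89 CPM in CTL, against 5.64, 6.93 and 6.69 CPM in Nelfb-/- cells. Only CTL replicate 3 lay among the Nelfb-/- values (log2 fold change -0.63, SE 0.28, adjusted p = 0.17). Without CTL replicate 3 its log2 fold change was -0.90 (SE 0.20) with an adjusted p of 0.032, still under 2-fold, and 22.5% of all genes had an adjusted p of at most 0.05 in that fit. Of the exon bases of Hoxa7, 20.4% are covered by the antisense RNA Hoxaas3. Hoxb7 was at 5.19, 3.97 and 3.33 CPM in CTL, against 4.55, 6.11 and 4.41 CPM in Nelfb-/- cells (log2 fold change 0.28, SE 0.26, adjusted p = 0.51).

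Among the posterior members (9 to 13), Hoxa9 came closest to the threshold. Hoxa9, a regulator of blood progenitors and of trunk identity, stood at 25.7, 13.3 and 14.2 CPM in CTL, against 6.78, 10.2 and 10.2 CPM in Nelfb-/- cells. All 3 Nelfb-/- libraries lay below all 3 CTL libraries, and CTL replicate 1 was far above the other two. The log2 fold change was -0.93 (SE 0.31, adjusted p = 0.095 by limma), which did not pass. It was the only 1 of the 28 tested members with groups that did not overlap, whereas 38.1% of all genes tested had groups that did not overlap. As 1 library at a time was left out, the log2 fold change lay between -1.10 (SE 0.35, adjusted p = 0.14, without CTL replicate 2) and -0.625 (SE 0.27, adjusted p = 0.24, without CTL replicate 1), past 2-fold in 4 of the 6 fits and past the adjusted p in 0.

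Hoxb9, its paralog, which helps to pattern the thoracic ribs, had a higher mean in Nelfb-/- cells, with 9.52, 3.78 and 8.91 CPM in CTL, against 8.82, 13.6 and 16.0 CPM in Nelfb-/- cells. The lowest Nelfb-/- library lay below 2 of the CTL libraries (log2 fold change 0.86, SE 0.42, adjusted p = 0.21). It lay between 0.43 and 1.10 as 1 library at a time was left out. Hoxc9, which sets thoracic motor neuron identity, differed by -0.01 on the log2 scale (SE 0.23, 95% interval -0.55 to 0.53), with 10.3 to 16.6 CPM in CTL and 11.5 to 15.0 CPM in Nelfb-/- cells. Hoxd9 stood at 8.88, 10.4 and 6.49 CPM in CTL, against 5.12, 6.75 and 5.71 CPM in Nelfb-/- cells (log2 fold change -0.53, SE 0.24, adjusted p = 0.19). Its highest Nelfb-/- library lay just above its lowest CTL library.

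The ratio of Hoxa9 to Hoxb9 within a library was 2.701, 3.52 and 1.59 in CTL and 0.769, 0.751 and 0.634 in Nelfb-/- cells. This pair was picked after the values were seen, and the ratio is given as a description without a test. The same ratio for Hoxa7 to Hoxb7 was 2.57, 2.71 and 2.07 in CTL and 1.24, 1.13 and 1.52 in Nelfb-/- cells, also chosen after the values were seen. In both pairs the cluster a gene was lower relative to its cluster b paralog in every Nelfb-/- library than in any CTL library. Among single genes, 38.1% of all tested had groups that did not overlap, and the share among ratios of other gene pairs was not computed. The other 4 of the 6 pairs of tested cluster a and b paralogs had ratios that overlapped between the groups. The mean ratio was lower in Nelfb-/- cells for Hoxa3 to Hoxb3 (0.461 in CTL, 0.297 in Nelfb-/-) and Hoxa5 to Hoxb5 (1.28 and 0.774), and higher for Hoxa2 to Hoxb2 (0.0577 and 0.116) and Hoxa4 to Hoxb4 (0.26 and 0.308).

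At paralog number 10, Hoxa10 and Hoxc10 were each lowest in CTL replicate 2. Hoxc10, which is used in lumbar segments and is well known from subcutaneous fat, stood at 41.9, 16.1 and 23.2 CPM in CTL, against 22.6, 20.5 and 25.7 CPM in Nelfb-/- cells, so that the whole Nelfb-/- range lay inside the CTL range. Hoxa10, which acts in the lumbar spine and uterus, was at 17.9, 5.60 and 16.1 CPM in CTL, against 8.72, 8.85 and 11.6 CPM in Nelfb-/- cells. The log2 fold changes were -0.13 (SE 0.34) and -0.28 (SE 0.45). Hoxd10 was at 0.093 to 0.699 CPM and below the filter.

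The members of numbers 11 to 13, which pattern limb and tail-end structures, varied widely among the CTL libraries. Hoxa11, a gene of the forearm and lower leg skeleton and of the uterus, stood at 0.541, 0.211 and 5.95 CPM in CTL, against 1.36, 1.11 and 2.82 CPM in Nelfb-/- cells. CTL replicate 3 was 28.1 times as high as CTL replicate 2, whereas the highest Nelfb-/- library was 2.55 times the lowest. The log2 fold change of 0.79 had an SE of 1.14 (adjusted p = 0.67). Of its exon bases, 35.0% are covered by the antisense RNA Hoxa11os, which was at 0.406, 0.302 and 1.23 CPM in CTL and so was also highest in replicate 3.

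Hoxc11, a gene of hindlimb and lumbosacral segments, was at 1.31, 0.467 and 3.09 CPM in CTL, against 1.09, 1.11 and 2.16 CPM in Nelfb-/- cells. Hoxc12 was at 1.53 CPM in CTL replicate 3 and between 0 and 0.122 CPM in the other 5 libraries, at or below 3 reads in each. Hoxc13, which controls hair and nail keratins, was at 0.812, 1.26 and 3.43 CPM in CTL, against 1.71, 2.15 and 3.998 CPM in Nelfb-/- cells (log2 fold change 0.67, SE 0.59, adjusted p = 0.48). All 4 members of numbers 11 to 13 had their highest CTL value in CTL replicate 3 and their highest Nelfb-/- value in Nelfb-/- replicate 3. Their summed level was 2.66, 1.99 and 14.0 CPM in CTL, against 4.21, 4.42 and 9.11 CPM in Nelfb-/- cells, and CTL replicate 3 exceeded CTL replicate 2 by 7.06 times. The group means, 6.22 ± 6.75 and 5.91 ± 2.77 CPM (SD, n = 3), lay close together beside that spread.

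**Figure D4:**
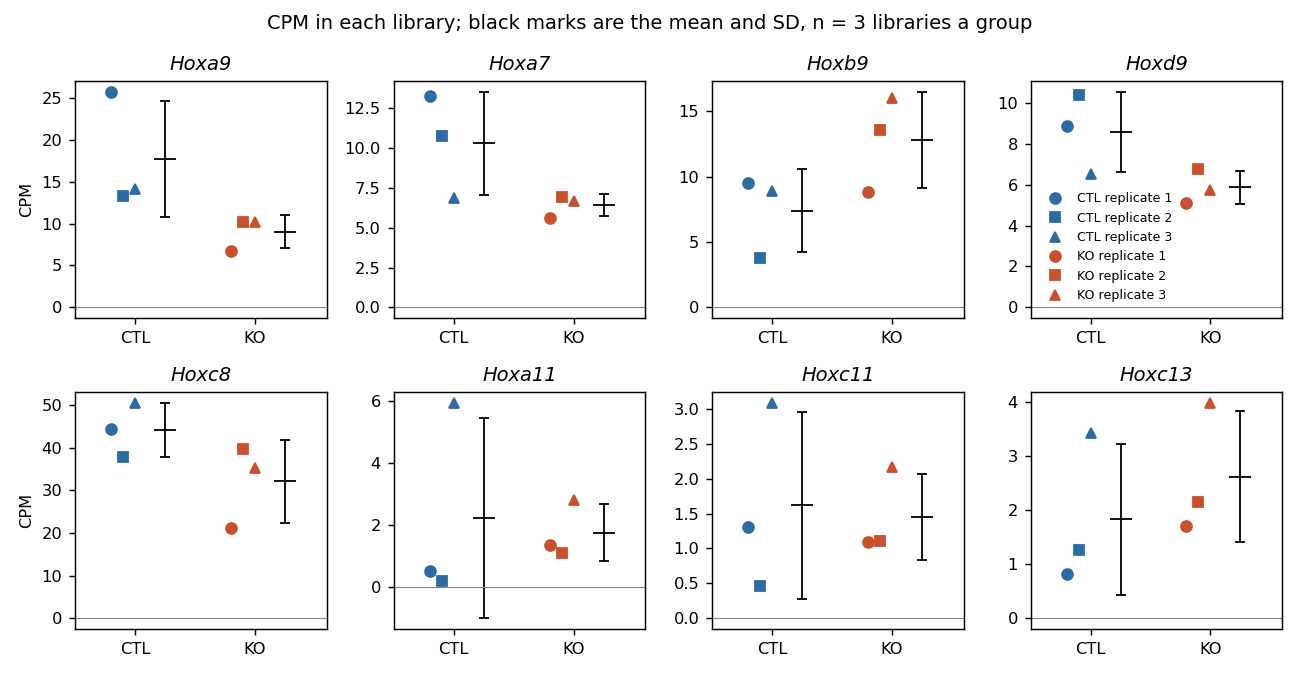
CPM of 8 HOX genes in each library, blue for CTL and orange for Nelfb-/- (KO), with the mean and SD of 3 libraries in black. Hoxa9 is the only gene shown with groups apart, and Hoxa11, Hoxc11 and Hoxc13 are highest among CTL libraries in replicate 3.

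Summed by cluster, no HOX cluster had groups that lay apart. Cluster a summed to 68.3, 38.7 and 50.8 CPM in CTL, against 30.3, 36.2 and 39.1 CPM in Nelfb-/- cells, and its ratio of means, 0.669, was the lowest of the 4. The highest Nelfb-/- sum lay just above the lowest CTL sum. Cluster b summed to 57.6 ± 8.12 CPM in CTL against 60.8 ± 17.3 CPM in Nelfb-/- cells (SD, n = 3), cluster c to 139 ± 21.8 and 114 ± 19.0 CPM, and cluster d to 54.6 ± 8.17 and 53.1 ± 14.4 CPM. By class, the anterior sum was 23.3 ± 4.84 CPM in CTL against 22.1 ± 4.38 CPM in Nelfb-/- cells, the central sum 187 ± 7.78 and 162 ± 41.5 CPM, and the posterior sum 93.7 ± 31.0 and 79.7 ± 12.97 CPM. These sums weight each gene by its reads, so that in cluster a they follow Hoxa9, Hoxa10 and Hoxa7, in cluster c Hoxc6, Hoxc8 and Hoxc10, and in cluster d Hoxd8. No test was run on them.

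Nelfb-/- replicate 1 had the lowest HOX sum of the set. Its HOX sum was 202 CPM, against 280.1 to 339 CPM in CTL, and against 302 and 287 CPM in Nelfb-/- replicates 2 and 3, and 17 of the 31 members had their lowest value of all 6 libraries there. Without that library, 14 of 28 log2 fold changes were negative rather than 18, and their median was -0.043 rather than -0.18. For the posterior class alone, the sum was lower in CTL replicate 2 (61.6 CPM) than in Nelfb-/- replicate 1 (67.9 CPM). The macrophage marker list had its highest sum of the 6 libraries in Nelfb-/- replicate 1, 5819 CPM, against 1726 and 2907 CPM in Nelfb-/- replicates 2 and 3. The adipocyte list had its lowest sum there, 15908 CPM. The fibroblast and progenitor list was at 6470, 20271 and 22715 CPM in Nelfb-/- cells and at 4368, 3801 and 13883 CPM in CTL. The part of these cells in the HOX values of Nelfb-/- replicate 1 was not tested.

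**Figure D5:**
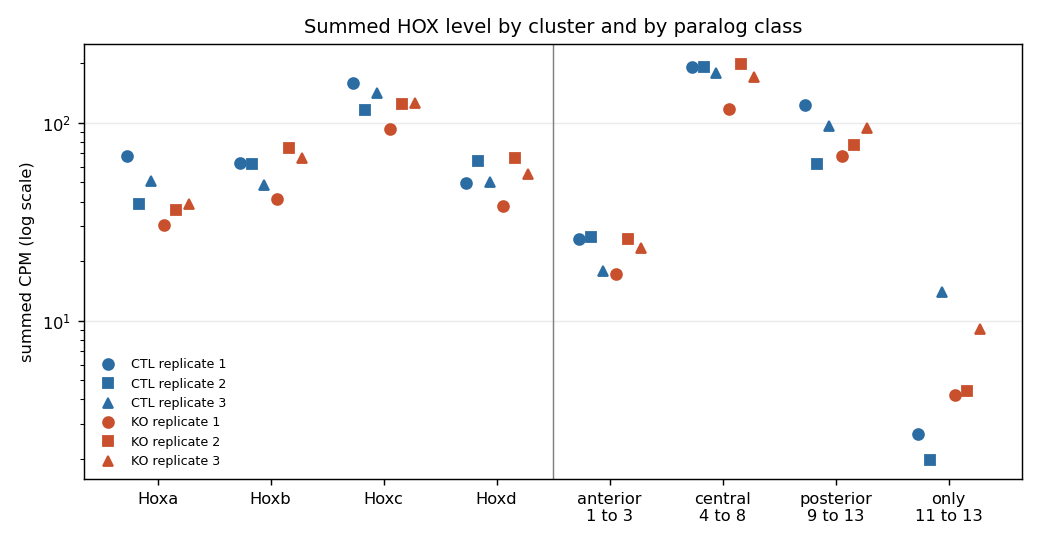
Summed CPM (log scale) of the HOX genes by cluster and by paralog class in each library, blue for CTL and orange for Nelfb-/- (KO). The groups overlap in every column, Nelfb-/- replicate 1 is low in the clusters and in the central class, and CTL replicate 3 is highest, at 14.0 CPM, for numbers 11 to 13.

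The clusters also hold other rows, mostly antisense and intergenic RNAs. Of 13 such rows 10 were tested, with 4 above 0, 6 below and 0 past the threshold, against 11.2% of all genes. The unadjusted p was above 0.05 in each of them. The log2 fold changes included -0.79 for Hoxb3os (SE 0.38, adjusted p = 0.21), -0.71 for Hotairm1 (SE 0.42, adjusted p = 0.29) and -0.81 for Haglr (SE 0.64, adjusted p = 0.42), and these 3 were named after their values were seen. Hotair, an RNA from cluster c known to bind Polycomb proteins, was at 0.045, 0.047 and 0.408 CPM in CTL, against 0.284, 0.175 and 0.612 CPM in Nelfb-/- cells and was not tested. Gm14424, in cluster d, had Nelfb-/- values (0.190, 0.640 and 0.286 CPM) above its CTL values (0.090, 0.187 and 0.068 CPM) but was below the filter. Hotair was named after its values were seen.

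Beside the clusters, 7 protein-coding genes lay within 200 kb, and 0 passed the threshold, against 11.2% of all genes. Of the 7, 3 had groups that did not overlap, against 38.1% of all genes. Lnpk, next to cluster d and needed for the shape of the endoplasmic reticulum, stood at 16.1, 18.4 and 20.1 CPM in CTL, against 28.1, 26.9 and 26.6 CPM in Nelfb-/- cells. Its groups did not overlap, and its change was under 2-fold (log2 fold change 0.58, SE 0.14, adjusted p = 0.040). Skap2, next to cluster a and an adaptor protein of immune cells, was also higher in every Nelfb-/- library, with 18.9, 13.5 and 16.6 CPM in CTL, against 44.0, 24.2 and 28.5 CPM in Nelfb-/- cells (log2 fold change 0.94, SE 0.26, adjusted p = 0.055). Smug1, a DNA repair enzyme beside cluster c, had a log2 fold change of 0.35 (SE 0.16, adjusted p = 0.18) with groups that did not overlap.

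Of the TALE cofactors 10 of 11 were tested and 0 passed the threshold, against 11.2% of all genes. By the adjusted p alone 1 of the 10 passed, against 15.8% of all genes. Their log2 fold changes had a median of 0.35, with 7 above 0 and 3 below. Pbx2, a partner of HOX proteins on DNA, had an adjusted p under the limit with a change under 2-fold, from 45.6, 47.9 and 51.8 CPM in CTL to 28.8, 30.1 and 30.0 CPM in Nelfb-/- cells (log2 fold change -0.71, SE 0.12, adjusted p = 0.014). It and the chromatin genes that follow were named after their values were seen.

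Genes of the chromatin complexes that keep HOX patterns did not pass the threshold. All 12 listed genes of Polycomb complex 2, 20 of Polycomb complex 1 and 17 of the Trithorax and H3K27 demethylase list were tested, and 0 of these 49 passed, against 11.2% of all genes. The one fitted change of 2-fold or more among them was that of Cbx7, a subunit of Polycomb complex 1, with 25.4, 37.2 and 6.39 CPM in CTL, against 16.6, 3.26 and 3.55 CPM in Nelfb-/- cells (log2 fold change -1.65, SE 0.85, adjusted p = 0.23), and its groups overlapped. By the adjusted p alone 4 of the 49 (8.16%) passed, against 15.8% of all genes. They were Suz12 (log2 fold change -0.58), Jarid2 (-0.54) and Pcgf2 (-0.996, just under 2-fold), which were lower than in CTL, and Rybp (0.95), which was higher. Suz12 and Jarid2 belong to Polycomb complex 2, which methylates histone H3 at lysine 27, and Pcgf2 and Rybp to forms of Polycomb complex 1. The median log2 fold changes of the 3 lists were -0.24, 0.20 and -0.09, beside 0.07 for all genes tested.

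Of 20 tested genes on a list of other positional homeobox and T-box factors, 3 (15.0%) passed the threshold, against 11.2% of all genes tested. Irx3 and Irx5, Iroquois homeobox genes that lie near each other on chromosome 8 and act in fat and limb patterning, fell in Nelfb-/- cells. Irx3 stood at 31.8, 38.0 and 26.0 CPM in CTL, against 10.7, 6.46 and 9.22 CPM in Nelfb-/- cells (log2 fold change -1.87, SE 0.25, adjusted p = 0.0075). Irx5 fell from 23.5, 31.0 and 18.6 CPM to 11.6, 8.38 and 10.9 CPM (log2 fold change -1.22, SE 0.24, adjusted p = 0.021). The 3 values of each gene in Nelfb-/- cells all lay below its CTL values.

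Pax3, a gene of muscle and pigment cell precursors, rose from 0.271, 0.233 and 0.102 CPM to 2.04, 1.34 and 0.898 CPM (log2 fold change 2.57, SE 0.50, adjusted p = 0.020). Gdf11, a secreted factor that shifts HOX expression toward posterior genes in the embryo, rose from 2.44, 2.57 and 4.05 CPM to 5.31, 7.39 and 7.71 CPM (log2 fold change 1.18, SE 0.29, adjusted p = 0.040). Its list held 5 genes linked to HOX regulation, of which 2 were tested and Gdf11 alone passed, against 11.2% of all genes. Of these 4 genes Irx3 passed whichever library was left out, while Irx5, Pax3 and Gdf11 failed, at adjusted p between 0.055 and 0.16, when CTL library 1, CTL library 2, Nelfb-/- library 2 or Nelfb-/- library 3 was the one missing.

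Marker lists of several cell types differed between the genotypes, and each count that follows stands against the 11.2% of all genes that passed the threshold. The macrophage list summed to 177 to 625 CPM in CTL and 1726 to 5819 CPM in Nelfb-/- cells, with 8 of 9 genes past the threshold and higher. All 4 tested skeletal muscle genes, 5 of 6 melanocyte genes and 2 of 4 Schwann cell genes also rose, while 1 Schwann cell gene fell. Their sums were 7.14 to 9.49 and 36.9 to 51.3 CPM for muscle and 48.6 to 73.7 and 51.9 to 168 CPM for melanocytes. For Schwann cells they were 46.9 to 58.1 and 90.3 to 115 CPM. The pigment cell enzyme Tyr was at 0 in every CTL library. Most of the melanocyte sum in CTL was Mitf, which did not pass (mean 60.8 CPM, against 48.2 CPM in Nelfb-/- cells). Most of the Schwann cell sum in CTL was Mbp, the gene that fell (31.3 and 13.6 CPM). The adipocyte list summed to 23822 to 40084 CPM in CTL and 15908 to 24176 CPM in Nelfb-/- cells, with 1 of 8 genes past the threshold and lower. The fibroblast and progenitor list summed to 3801 to 13883 CPM and 6470 to 22715 CPM, most of it from the collagen genes Col1a1 and Col1a2, with 1 of 9 higher. Keratinocyte genes summed to 2.75 to 3.17 and 6.69 to 14.6 CPM (1 of 4 higher), endothelial genes to 7.04 to 11.5 and 7.63 to 19.2 CPM (0 of 5) and mural cell genes to 41.0 to 141 and 65.9 to 133 CPM (0 of 5). The part of these cells in the HOX values was not tested.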

How the data were processed

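RNA-seq was analysed for 3 CTL and 3 Nelfb-/- libraries. The authors deposited 1 table of CPM values per gene. Each column summed to 1000000 after an offset of 0.0001 was subtracted, and 0 columns belonged to other samples. The submitters' processing notes name STAR 2.7, Partek 9.0.20.0202 and the mm10 build, and the strand setting is not given in the sources used here. Ends listed in the table lie 1 base past the annotated end and were moved back by 1. Between 69.3% and 72.0% of values of at most 20 reads were whole multiples of 1 read (within 0.02), so that no count test was run.

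The CPM values were scaled to the geometric mean depth of 22.3 M reads (M stands for 1000000), genes with a mean of at least 10 were kept, and log2(value + 1) was tested with limma (3.58.1, R 4.3.3) with an abundance trend and Benjamini-Hochberg adjustment over all genes. Fold changes are on this scale, which understates those of low genes. The threshold was an adjusted p of at most 0.05 and 2-fold. The fit was checked on simulated data. Levels between genes were compared per kb of merged exon (GENCODE M21, GRCm38). Figures and sums were made with Python 3.11.15.

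HOX genes are given by value, range or count, and other genes are named where they passed the threshold or, inside or within 200 kb of a cluster, where groups did not overlap. Other genes named after their values were seen are marked so, apart from the markers Tyr, Mitf, Mbp, Col1a1 and Col1a2, which were also chosen that way. Of the 32 HOX genes, 1 is not reported here and enters no count or sum of HOX genes. The HOX genes, gene lists and tests were chosen with earlier results of these data known. Intervals for 3 libraries a group come from the moderated variance, and the floor of 3 reads covers counting error only. Pseudocount, filter, scaling, variance model, replicate block and libraries left out were varied.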

Additional observations from a re-analysis of the deposited data

How the results depend on the processing

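No HOX gene passed the threshold in any of 16 alternatives, 6 of which left out 1 library. Nelfb kept its direction and passed in all 16, with log2 fold changes from -2.08 to -1.82 as libraries were left out. The count over all genes moved from 1824 to between 426 (without Nelfb-/- replicate 3) and 2479 (without CTL replicate 3), and the count of listed HOX-related genes from 4 to between 1 and 8. The other values were 871 and 758 without CTL replicates 1 and 2, 945 without Nelfb-/- replicate 2 and 1955 without Nelfb-/- replicate 1. With 1 library fewer a group of 2 remained.

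Of the HOX genes, 11 changed sign as 1 library was left out, each with an adjusted p of at least 0.47 there, and the cause was not tested. Another 14 kept their sign but moved by more than 1.5 times as 1 library was left out, and Hoxa7, Hoxa9 and Hoxd9 moved by less. With libraries left out the log2 fold change lay between -0.66 and 0.034 (without Nelfb-/- replicate 1) for Hoxa4, and between -0.81 and 0.021 (without CTL replicate 1) for Hoxa10. For Hoxa11 it lay between -0.17 (without CTL replicate 2) and 2.11 (SE 0.60, adjusted p = 0.058, without CTL replicate 3). It lay between -0.20 (without Nelfb-/- replicate 2) and 0.53 for Hoxb6, -0.44 and 0.14 (without Nelfb-/- replicate 1) for Hoxb8, and -0.26 and 0.22 (without Nelfb-/- replicate 1) for Hoxc5. Hoxc9 ranged from -0.18 to 0.16, above 0 without CTL replicate 1 (0.16) and without Nelfb-/- replicates 1 (0.071) or 2 (0.012). Hoxc10 ranged from -0.45 to 0.24 (without CTL replicate 1), and Hoxc11 from -0.53 (without CTL replicate 2; -0.18 without Nelfb-/- replicate 3) to 0.78. Hoxd3 ranged from -0.81 to 0.0031 (without CTL replicate 2), and Hoxd8 from -0.13 (without Nelfb-/- replicate 2; -0.016 without CTL replicate 1) to 0.31.

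Over the 16252 genes, same-numbered libraries deviated together for replicates 1 and 3 (correlations of 0.52 and 0.52) but not for replicate 2 (-0.39). CTL replicate 3 with Nelfb-/- replicate 2 reached 0.54, so these correlations could not settle whether the numbers mark pairs. The main fit took no pairs. With the replicate block 2175 genes and 0 HOX genes passed, 5 listed HOX-related genes passed, and Nelfb had a log2 fold change of -1.99. Other scalings lowered the log2 ratios of cluster and class sums by about 0.07. With libraries left out the ratio lay between -0.76 and -0.35 for cluster a, -0.10 and 0.29 for b, -0.40 and -0.15 for c, and -0.23 and 0.15 for d. It lay between -0.24 and 0.07 for the anterior, -0.38 and -0.02 for the central and -0.46 and 0.02 for the posterior class.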
